A study of Mus musculus with 14 samples.

Results

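The 34 genes described here encode subunits of the mouse proteasome: 7 alpha-ring and 7 beta-ring subunits of the 20S core, the 3 immunoproteasome subunits, and 6 ATPases and 11 non-ATPase subunits of the 19S cap. They were chosen by symbol from a list of proteasome subunits, and all 34 were found among the 23337 gene symbols of the count files. Within them Psmb5, named as a candidate target of the transcription factor THAP1, was set against the other 33. The groups, dissected brain tissue measured by RNA sequencing, were striatum from Thap1 conditional knockout mice (cKO, 3 samples) and from wildtype littermates (WT, 3 samples), and cerebellum from cKO mice (4 samples) and WT littermates (4 samples). All 14 samples are labelled with the C57Bl/6 strain background and an age of 6 months. For the Cre driver, the cells it acts in and the deleted part of Thap1 no statement was at hand. Replicates are not stated to be different animals. The p-values therefore cover the spread among the samples as labelled, which may be technical.

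The proteasome degrades proteins tagged with ubiquitin. The 20S core is a barrel in which alpha rings form the gates and beta rings hold the cutting sites, and the 19S cap recognises, unfolds and feeds in the substrate. Psmb5 encodes beta5, the chymotrypsin-like catalytic subunit, Psmb6 encodes beta1 and Psmb7 encodes beta2. In cells exposed to interferon gamma the immunoproteasome subunits Psmb8, Psmb9 and Psmb10 take the places of beta5, beta1 and beta2. Subunit genes are known to be induced together when proteasome activity falls, chiefly through NFE2L1 acting on antioxidant response elements, and the THAP zinc finger of THAP1 binds a short core written TNNNGGCA.

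The promoters of Psmb5 and Psmb6 are shown because both encode catalytic subunits and both windows hold both motifs, while only Psmb5 passed the test between genotypes; whether the 2 genes' changes differ was not tested. Each line gives the 250 bases before the annotated start, read 5′ to 3′ on the gene's own strand, from RefSeq (GRCm38.p6, mm10). The Psmb5 window is chr14:54617996-54618245 on the minus strand, and the Psmb6 window is chr11:70525107-70525356 on the plus strand. For Psmb5 the GENCODE gene model begins a little upstream of the RefSeq start, so the last bases of that window lie in its first GENCODE exon. Capitals mark each match to the THAP1 core on either strand.
Psmb5: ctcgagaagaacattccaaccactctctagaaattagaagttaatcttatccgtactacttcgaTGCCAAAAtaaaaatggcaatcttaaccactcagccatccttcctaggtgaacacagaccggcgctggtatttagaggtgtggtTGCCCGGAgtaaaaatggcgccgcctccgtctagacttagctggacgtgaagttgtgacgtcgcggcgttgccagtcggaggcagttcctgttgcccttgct
Psmb6: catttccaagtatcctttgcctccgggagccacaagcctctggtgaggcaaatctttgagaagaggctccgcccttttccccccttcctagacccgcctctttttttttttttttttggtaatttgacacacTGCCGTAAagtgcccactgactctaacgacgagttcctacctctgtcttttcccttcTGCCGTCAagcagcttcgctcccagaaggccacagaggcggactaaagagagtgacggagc
Both windows hold 2 matches to TNNNGGCA, all on the opposite strand, at bases -186 to -179 and -102 to -95 in Psmb5 and at bases -118 to -111 and -61 to -54 in Psmb6, with -1 the last base before the start. Of 32851 mouse promoters, 36.4% hold at least 1 such match and 8.03% hold 2 or more. Of the 28 subunit genes with a promoter in the table, 14 hold a match. Besides Psmb5 and Psmb6, the promoters of Psmd13 and Psmb9 also hold more than 1. The antioxidant response element core TGACNNNGC, searched on both strands without overlap with the THAP1 matches of these windows, lies at bases -47 to -39 of Psmb5 and -9 to -1 of Psmb6. It occurs in 4 of the 28 subunit promoters, those of Psmb5, Psmb6, Psmc6 and Psmd12, and in 10.2% of all promoters.

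Library totals ran from 12659013 to 14258141 counts in striatal cKO, 12595941 to 13499875 in striatal WT, 19860775 to 28099205 in cerebellar cKO and 19458954 to 24331760 in cerebellar WT. Striatal WT replicate 1 stood apart. For 33 of the 34 subunits its level was the lowest of the 6 striatal libraries, which was true of 33.9% of all 14080 genes tested there. Its subunit levels were 44.6% to 101% of the mean of the other WT striata, with a median of 66.0%. In that library short transcripts were under-represented: the slope of a gene's log2 deviation from its tissue mean on log2 exon length was 0.255, against -0.0644 to -0.0413 in the other striatal libraries and -0.0121 to 0.0116 in cerebellum. Subunit transcripts are short, with a median exon length of 1561 bp against 3450 bp for all genes tested in striatum, and striatal fold changes of the subunits are given below with and without that library.

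Thap1 itself was lower in every cKO sample than in any WT sample of the same tissue. In striatum it had 5.24, 7.65 and 3.76 CPM (counts scaled by library size) in cKO samples, against 13.2, 14.4 and 15.3 CPM in WT samples. The groups did not overlap, and the mean was 38.8% of WT (log2 fold change -1.36, adjusted p = 0.0562 by edgeR's quasi-likelihood test with Benjamini-Hochberg adjustment; exact permutation p = 0.1, the smallest that 3 against 3 samples allow). Without WT replicate 1 it passed (log2 fold change -1.41, adjusted p = 0.0248 by edgeR). In cerebellum Thap1 had 7.34, 7.45, 7.79 and 6.84 CPM in cKO samples, against 10.3, 8.15, 10.5 and 8.31 CPM in WT samples. These groups did not overlap either, and the mean was 79.0% of WT (log2 fold change -0.34, adjusted p = 0.0488 by edgeR; exact permutation p = 0.0286, the smallest that 4 against 4 samples allow). Both adjusted values sit near the threshold: with 1 library left out, Thap1 passed edgeR's test in 1 of 6 fits in striatum (-1.66 to -1.15 on the log2 scale, adjusted p 0.0248 to 0.404) and in 2 of 8 in cerebellum, without WT replicate 2 or WT replicate 4 (-0.40 to -0.27, adjusted p 0.0224 to 0.170). How much of the counted Thap1 message lies outside the deleted part cannot be read from these files. Hcfc1 and Ogt, whose products bind THAP1, were at 95.0% and 87.4% of WT in striatum and at 97.8% and 96.6% in cerebellum, and neither passed the test.

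Psmb5 was lower in cKO cerebellum, and it was the one subunit of 34 that passed the test in either tissue. It had 8.53, 9.29, 8.43 and 8.91 CPM in cKO cerebellum, against 13.5, 15.8, 16.8 and 14.3 CPM in WT cerebellum, from 172 to 250 counts and 271 to 370 counts per library. All 4 cKO samples lay below all 4 WT samples, and the WT samples were the more spread. The means were 8.79 ± 0.391 CPM in cKO and 15.1 ± 1.47 CPM in WT (SD, n = 4 each; exact two-sided permutation p = 0.0286, the smallest possible), so that cKO stood at 58.2% of WT. On the log2 scale the cKO over WT change was -0.78 (SE 0.082, adjusted p = 1.52e-05 by edgeR's quasi-likelihood test). Leaving out each library in turn gave -0.83 to -0.72. Across all genes tested in cerebellum 7.59% passed at an adjusted p under 0.05, 4.96% as lower in cKO, and among those 733 lower genes Psmb5 ranked 35 by p and 34 by size of the fold change. In bulk tissue, fewer cells of a type and less RNA per cell cannot be told apart.

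Psmb5 in striatum did not pass the test. It had 10.01, 9.39 and 10.7 CPM in cKO striatum, against 7.65, 10.6 and 13.7 CPM in WT striatum. The cKO samples lay close together inside the range of the WT samples, whose lowest value is replicate 1. The means were 10.02 ± 0.638 CPM in cKO and 10.7 ± 3.04 CPM in WT (SD, n = 3 each; exact two-sided permutation p = 0.8, where 0.1 is the smallest possible). The fitted cKO over WT change was -0.09 on the log2 scale (SE 0.206, adjusted p = 0.913 by edgeR), -0.27 without WT replicate 1 (adjusted p = 0.700) and 0.13 without WT replicate 3 (adjusted p = 0.805). The SE in striatum was thus wide beside that in cerebellum.

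The genotype effect on Psmb5 was not shown to differ between the tissues. The log2 fold change in cerebellum minus that in striatum was -0.71 (SE 0.207, unadjusted p = 0.00366, adjusted p = 0.185 by edgeR over 15401 genes, of which 0.39% passed). It passed when striatal WT replicate 3 was left out (-0.93, adjusted p = 0.0439), and was -0.51 without striatal WT replicate 1 (adjusted p = 0.170). None of the other 33 subunits passed this test of the difference. Among them 1, Psma5 of the alpha ring, lay under an unadjusted threshold of 0.05 (adjusted p = 0.293 by edgeR), as did 11.6% of all genes, and DESeq2 also called 0 of them.

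**Figure D1:**
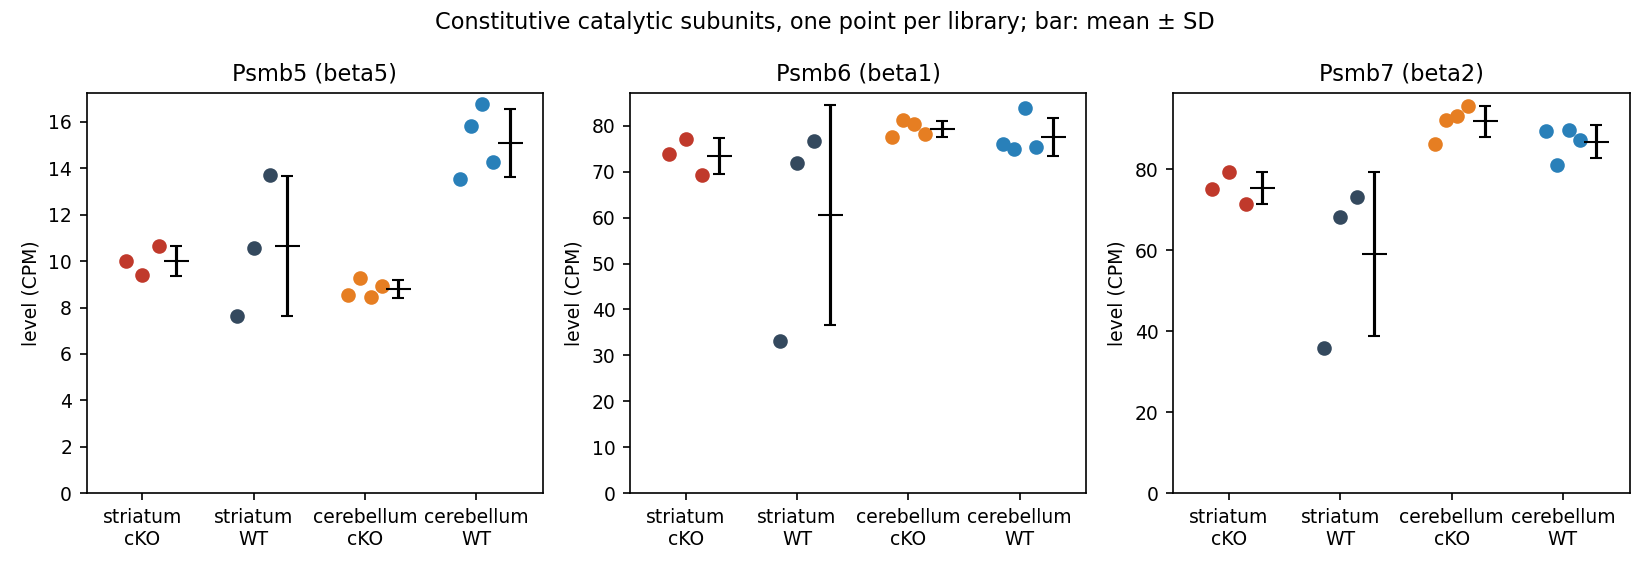
Levels of the constitutive catalytic subunits Psmb5, Psmb6 and Psmb7 (CPM, linear axis from 0) in each library of the 4 groups, with the mean and SD of each group as a bar. Psmb5 sits between 8.43 and 9.29 CPM in cKO cerebellum and between 13.5 and 16.8 CPM in WT cerebellum, while the groups overlap for Psmb6 and Psmb7.

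The other catalytic subunits did not share the cerebellar difference. Psmb6 (beta1) had 77.6, 81.2, 80.4 and 78.2 CPM in cKO cerebellum, against 76.1, 75.0, 83.8 and 75.3 CPM in WT cerebellum. Psmb7 (beta2) had 86.3, 92.2, 93.0 and 95.6 CPM in cKO cerebellum, against 89.4, 81.0, 89.7 and 87.1 CPM in WT cerebellum. For both genes the groups overlapped, and the log2 fold changes were 0.03 (SE 0.042, adjusted p = 0.711) and 0.08 (SE 0.042, adjusted p = 0.266) by edgeR. The exons of Psmb7 share 405 bp with Nek6 on the opposite strand, and it is not known whether the counting used strand, so its values are less certain. In all, 10 subunits share exon bases with another annotated gene. Overlapped on the opposite strand are also Psmb8 (186 bp), Psmb9 (212 bp) and Psmd13 (152 bp). So are Psma4 (114 bp), Psma5 (60 bp), Psmc3 (97 bp) and Psmd3 (17 bp), and the same limit holds for all these values. Psmd1 shares 301 bp with Gm21972 on the same strand, where strand could not separate the reads.

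In striatum Psmb6 had 73.9, 77.1 and 69.2 CPM in cKO samples, against 33.1, 71.8 and 76.7 CPM in WT samples. Psmb7 had 75.1, 79.3 and 71.4 CPM in cKO samples, against 35.9, 68.2 and 73.2 CPM in WT samples. In both genes WT replicate 1 was far below every other library, and the cKO samples otherwise overlapped the remaining WT samples. Psmb6 in that library was at 44.6% of the other WT striata, the lowest share of any subunit. The log2 fold changes of 0.28 for Psmb6 (adjusted p = 0.812) and 0.35 for Psmb7 (adjusted p = 0.778) did not pass edgeR's test. Without WT replicate 1 they were -0.01 for Psmb6 (adjusted p = 0.986) and 0.09 for Psmb7 (adjusted p = 0.817).

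None of the immunoproteasome subunits passed the test, and Psmb8 and Psmb9 were at low levels in all 4 groups. Psmb8, which replaces beta5, had 4.07, 3.49, 2.47 and 3.56 CPM in cKO cerebellum, against 1.90, 2.67, 3.31 and 3.06 CPM in WT cerebellum. Psmb9, which replaces beta1, had 1.04, 1.66, 0.933 and 1.18 CPM in cKO cerebellum, against 0.949, 1.03, 0.725 and 1.08 CPM in WT cerebellum. In both genes the groups overlapped, with log2 fold changes of 0.30 (SE 0.184, adjusted p = 0.360) and 0.34 (SE 0.237, adjusted p = 0.430) by edgeR. Psmb10, which replaces beta2, had 12, 11.3, 11.4 and 12.97 CPM in cKO cerebellum, against 10.5, 13.1, 13.1 and 12.3 CPM in WT cerebellum, and these overlapped (log2 fold change -0.04, adjusted p = 0.841 by edgeR). Psmb9 rested on 16 to 36 counts per cerebellar library, and Psmb8 on 38 to 100, so a small change in either was not detectable at this depth.

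In striatum Psmb8 had 2.65, 2.27 and 3.29 CPM in cKO samples, against 1.79, 3.48 and 3.03 CPM in WT samples. Psmb9 had 1.02, 0.909 and 1.18 CPM in cKO samples, against 0.651, 1.11 and 1.44 CPM in WT samples. Psmb10 had 12.7, 9.99 and 8.70 CPM in cKO samples, against 5.29, 8.22 and 9.81 CPM in WT samples. All 3 overlapped between the groups and had their lowest value in WT replicate 1. Their log2 fold changes were -0.02 for Psmb8, -0.05 for Psmb9 and 0.43 for Psmb10, with adjusted p of 0.987, 0.977 and 0.756 by edgeR. Without WT replicate 1 they were -0.25 for Psmb8, -0.29 for Psmb9 and 0.23 for Psmb10, and none passed.

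Of the 33 subunits other than Psmb5, 0 passed in cerebellum, where 7.59% of all genes did. Their log2 fold changes were above 0 in 29 and below 0 in 4, where 51.6% of all genes were above 0, with a median of 0.06 against 0.0044 over all genes tested. By edgeR 6 of them had an unadjusted p under 0.05, as did 22.5% of all genes: Psma2, Psma4, Psmc2, Psmd1, Psmd3 and Psmd13, all above 0. DESeq2 and limma-voom also called 0 of the 33. The lowest adjusted p among them was that of Psmd13, a non-ATPase subunit of the 19S lid, at 0.0793 with a log2 fold change of 0.12. Psmd13 had 61.4, 66.2, 66.3 and 65.8 CPM in cKO cerebellum, against 60.1, 58.4, 59.1 and 61.0 CPM in WT cerebellum. Together with Psma4 and Psmd3 it was 1 of 3 subunits whose cKO samples all lay above the WT samples, as in 6.37% of all genes, while 1, Psmb5, lay below, as in 7.96% of all genes.

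By role, the constitutive subunits other than Psmb5 spanned a narrow range in cerebellum, while Psmb8 at 0.30 and Psmb9 at 0.34, given above, lay higher with wider errors. The 7 alpha-ring genes ran from -0.02 for Psma5 to 0.11 for Psma2 on the log2 scale. The beta-ring genes other than Psmb5 ran from -0.04 for Psmb3 to 0.08 for Psmb7. The 6 ATPases of the 19S base, which unfold substrates, ran from -0.01 for Psmc5 to 0.11 for Psmc2. The 11 non-ATPase 19S subunits, among them the ubiquitin receptor Psmd4 and the deubiquitinase Psmd14, were all above 0 and ran from 0.03 for Psmd11 to 0.12 for Psmd13. Psmb5 at -0.78 lay far outside the span of the other constitutive subunits.

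**Figure D2:**
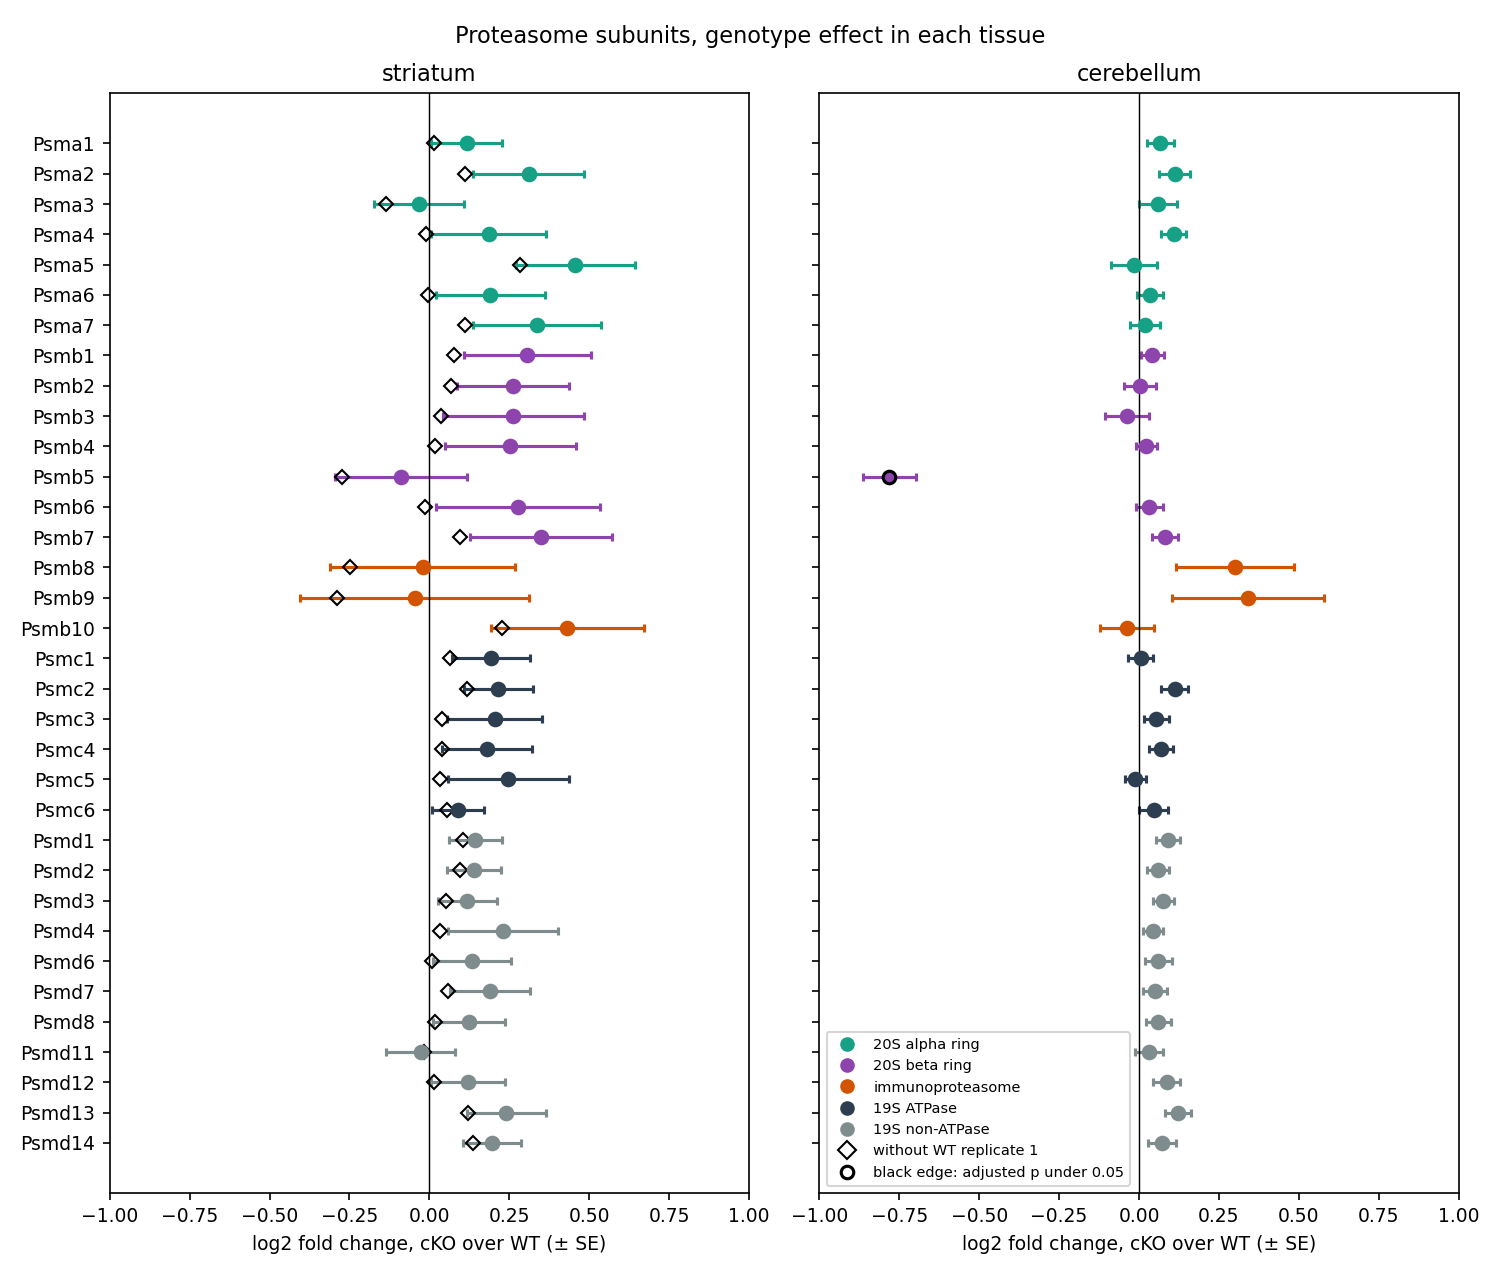
Log2 fold change of cKO over WT with its SE for each of the 34 subunits in striatum (left) and cerebellum (right), coloured by role, with a black edge where the adjusted p was under 0.05 and open diamonds for the striatal value without WT replicate 1. Psmb5 at -0.78 in cerebellum is the one point with a black edge, and most striatal diamonds lie closer to 0 than their points.

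In striatum 0 of the 33 other subunits passed either, where 0.384% of all genes did, and Psma5 was the 1 gene of them under an unadjusted threshold of 0.05 (adjusted p = 0.651 by edgeR), as were 7.24% of all genes. DESeq2 and limma-voom also called 0. The log2 fold changes were above 0 in 29 of 33, where 50.6% of all genes were, with a median of 0.19, against 0.0024 over all genes tested. Without WT replicate 1, 26 of 33 were above 0 and the median was 0.04, and with each library's trend on exon length removed the median was 0.06. The cKO samples all lay above the WT samples for 9 subunits, as in 6.85% of all genes: Psma2, Psma5, Psmc1, Psmc2, Psmc6, Psmd1, Psmd2, Psmd13 and Psmd14. None lay wholly below, as 8.2% of all genes did.

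By role, the striatal log2 fold changes ran from -0.03 for Psma3 to 0.46 for Psma5 in the alpha ring. They ran from -0.09 for Psmb5 to 0.35 for Psmb7 in the beta ring. Among the ATPases they ran from 0.09 for Psmc6 to 0.25 for Psmc5, and among the non-ATPase subunits from -0.03 for Psmd11 to 0.24 for Psmd13. Without WT replicate 1 the ranges were -0.14 for Psma3 to 0.28 for Psma5 in the alpha ring and -0.27 for Psmb5 to 0.09 for Psmb7 in the beta ring. They were then 0.03 for Psmc5 to 0.12 for Psmc2 among the ATPases, and -0.02 for Psmd11 to 0.14 for Psmd14 among the non-ATPase subunits. Summed over the 33 subunits, the level was 2394 to 2495 CPM in striatal cKO libraries and 1683 to 2357 CPM in striatal WT libraries, the lowest being WT replicate 1. In cerebellum the sum was 2611 to 2774 CPM in cKO libraries and 2500 to 2695 CPM in WT libraries.

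**Figure D3:**
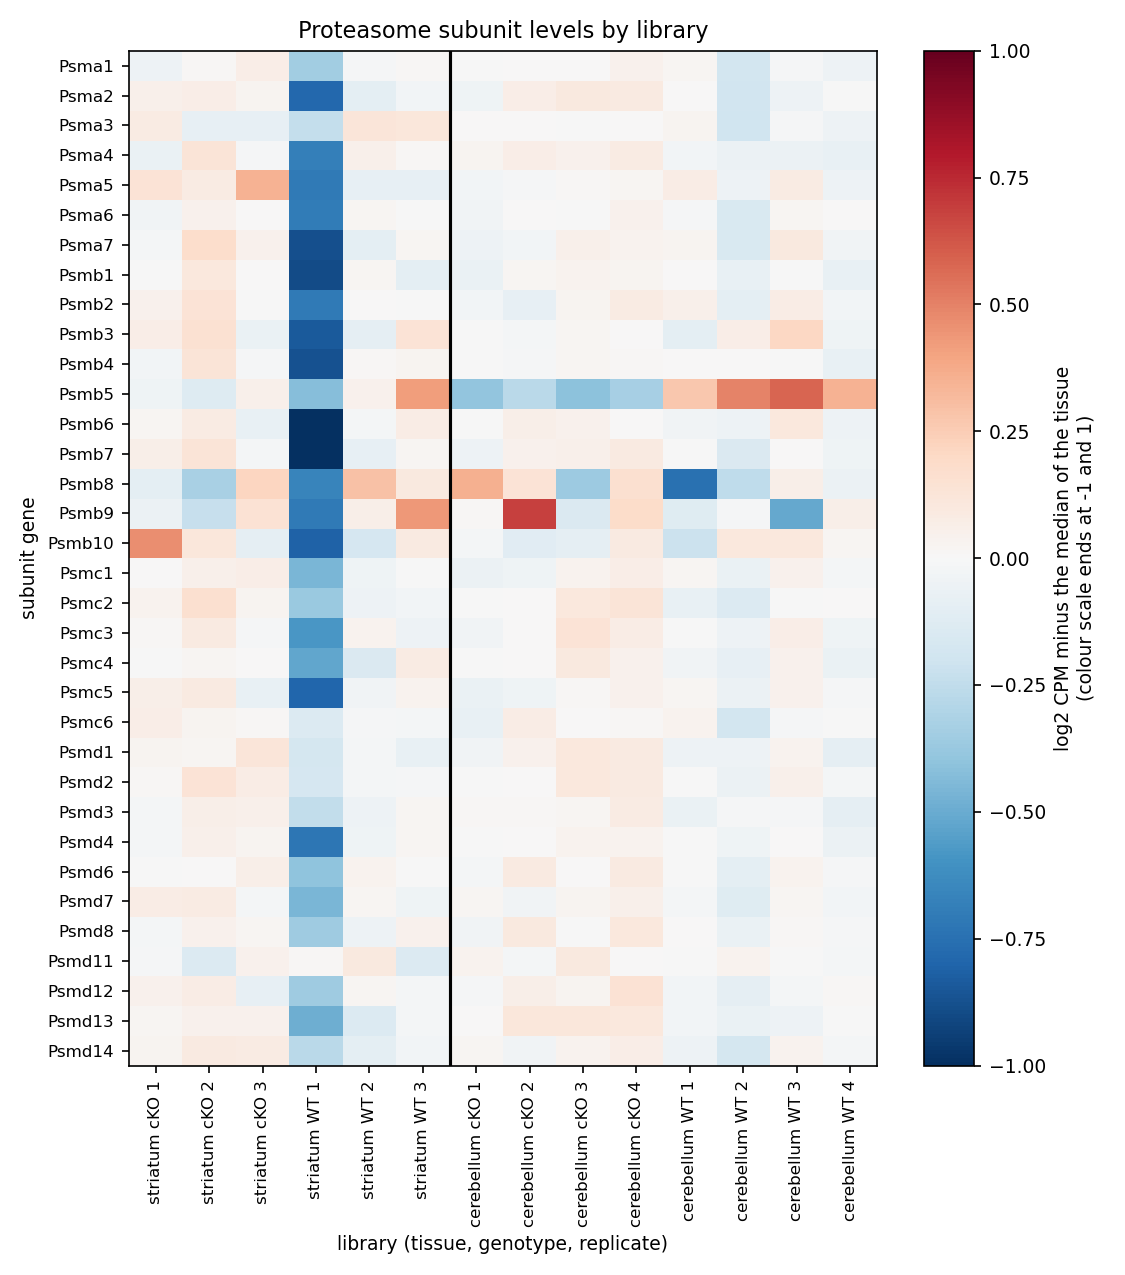
Level of each of the 34 subunits (rows) in each of the 14 libraries (columns), as log2 CPM minus the median of its tissue. Striatal WT replicate 1 is below the median in 33 rows, and Psmb5 is below the median in the cKO and above it in the WT libraries of cerebellum.

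Psmb5 was also read against its own complex in each library. The measure was its log2 CPM minus the mean log2 CPM of the other 13 constitutive 20S subunits. It cancels any scaling shared by the library, but not a trend on exon length. In cerebellum this difference was -2.68, -2.59, -2.75 and -2.68 in cKO libraries, against -2.04, -1.71, -1.76 and -1.91 in WT libraries. In striatum it was -2.30, -2.46 and -2.21 in cKO libraries, against -1.92, -2.18 and -1.84 in WT libraries. In both tissues every cKO library lay below every WT library, although in striatum the gap between the nearest of them was narrow. The measure was also taken for each of the 34 subunits, with Psmb5 and the subunit itself left out of the mean. On it 3 lay wholly lower in each tissue, Psmb5 with Psma3 and Psma6 in striatum and with Psma5 and Psmc5 in cerebellum. Lying wholly higher were 1 in striatum, Psma2, and 0 in cerebellum. The share over all genes was not computed on this measure, so these counts have no background to be read against. Psmb5 CPM was on average 15.7% of the geometric mean of those 13 genes in cKO cerebellum and 27.8% in WT cerebellum, 20.03% in cKO striatum and 25.5% in WT striatum. These shares are of CPM and are not corrected for transcript length.

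The cKO minus WT change in that relative level was -0.82 in cerebellum and -0.34 in striatum, or -0.31 without striatal WT replicate 1. With each library's trend on exon length removed it was -0.83 in cerebellum and -0.45 in striatum. Leaving out each library in turn gave -0.88 to -0.77 in cerebellum and -0.45 to -0.28 in striatum. Computed in the same way for each of the 34 subunits, Psmb5 had the lowest value in cerebellum, where the next was Psmb3 at -0.08 and the highest Psmb9 at 0.29. In striatum Psmb5 was the second lowest, after Psma3 at -0.35, and the highest was Psma5 at 0.20. Without striatal WT replicate 1 Psma3 was at -0.21, Psmb9 was the lowest at -0.34 and Psmb8 was at -0.31, level with Psmb5, while Psma5 was the highest at 0.25. These values are given as a description with no test.

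**Figure D4:**
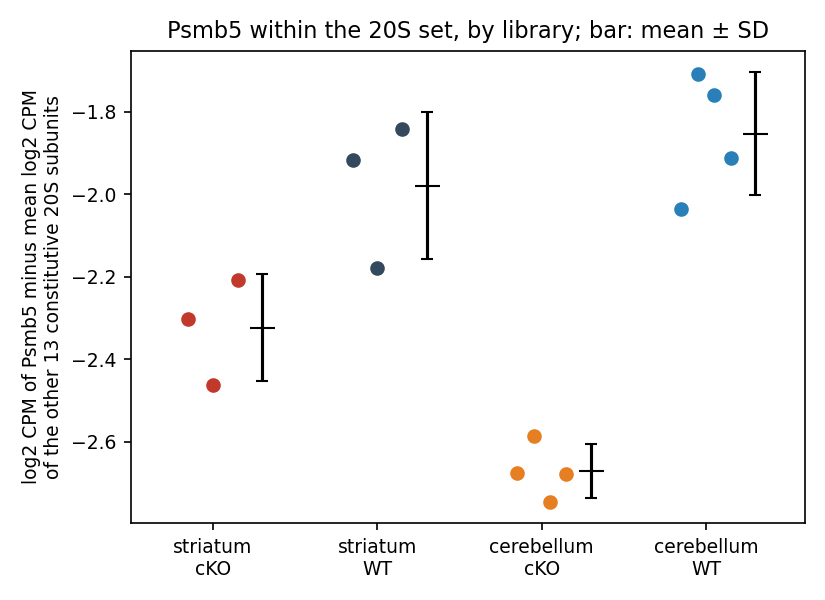
Log2 CPM of Psmb5 minus the mean log2 CPM of the other 13 constitutive 20S subunits in each library, with the mean and SD of each group as a bar. The cKO libraries lie below the WT libraries in both tissues, by -0.34 in striatum and -0.82 in cerebellum on average. In striatum the gap is narrow, with the nearest cKO and WT libraries at -2.21 and -2.18.

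Per kilobase of exon, Psmb5 had among the lowest counts of the constitutive 20S genes in all 4 groups. It had 11.9 ± 0.777 CPM per kb in cKO striatum and 12.6 ± 3.63 in WT striatum (SD, n = 3 each), and 9.28 ± 0.417 CPM per kb in cKO cerebellum and 16.1 ± 1.59 in WT cerebellum (SD, n = 4 each). Of the 14 constitutive 20S genes it was the third from the lowest in every group, above Psma3 and Psma5, and lowest of the 7 beta-ring genes. In cKO striatum its distance from Psma5 was within their SDs, and in WT striatum and cKO cerebellum it was larger than either SD, while in WT cerebellum it stood clear of Psma5 at 8.74 ± 0.457 CPM per kb. Psmb6 was the highest of the 14 in each group, with 94.3 CPM per kb in cKO cerebellum and 93.1 in WT cerebellum. The immunoproteasome subunits had 8.63 and 8.95 CPM per kb for Psmb10, 1.98 and 1.61 for Psmb8, and 0.843 and 0.668 for Psmb9 in cKO and WT cerebellum, so that Psmb8 stayed far below Psmb5 in both.

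The Psmb5 gene lies on chr14:54614119-54618022 on the minus strand of mm10. One of its exons holds the annotated microRNA gene Mir686 on the same strand over 109 bp, which was listed at 0 counts in all libraries. A pseudogene, Psmb5-ps, lies on chromosome 11 and had no count of its own in the files. Of 15 genes annotated within 100 kb of Psmb5, 11 were in the files and 8 were tested in cerebellum. None of these 8 passed, and none had an unadjusted p under 0.05 by edgeR. Their log2 fold changes were -0.15 to 0.32. In striatum 7 were tested and 0 passed, with log2 fold changes of -0.15 to 0.50.

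Other genes of the pathway also showed no genotype call. Of 39 further pathway genes in the files, 36 were tested in striatum and 37 in cerebellum, and 0 passed in either, where 0.384% and 7.59% of all genes did. By edgeR 2 in striatum and 8 in cerebellum had an unadjusted p under 0.05, as did 7.24% and 22.5% of all genes. The 8 assembly chaperones, such as Pomp and Psmg1, had a median log2 fold change of 0.25 in striatum and 0.03 in cerebellum. The 5 activators and inhibitor, among them the cap subunits Psme1 and Psme2, had medians of 0.05 and 0.02. The 6 regulators of subunit transcription, with Nfe2l1, its protease Ddi2 and its deglycosylase Ngly1, had medians of -0.08 and 0.05, and Nfe2l1 itself was at 0.00 (adjusted p = 0.991) in striatum and 0.10 (adjusted p = 0.144) in cerebellum. The 11 tested ubiquitin, E1 and shuttle factor genes had medians of 0.05 and 0.02, and the 6 other 19S and cap-bound genes had medians of 0.05 and 0.06. Without striatal WT replicate 1 the striatal medians were 0.08 for the chaperones, -0.07 for the activators and inhibitor, -0.04 for the regulators, 0.02 for the ubiquitin genes and -0.03 for the other 19S genes. The summed chaperone level was 180.7 to 201.5 CPM in striatal cKO libraries, against 121.6 CPM in WT replicate 1 and 184.1 and 179.1 CPM in the other WT libraries.

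Some cell type markers passed the test between genotypes in the same libraries. Across all genes tested 7.59% passed in cerebellum, 4.96% as lower in cKO, and 0.384% passed in striatum. In cerebellum a single call in a list of 8 or 10 genes is near that share. In cerebellum, where Psmb5 was lower, all 10 of 10 oligodendrocyte and myelin genes were below 0 and 6 passed, and their summed level was 4539 to 5104 CPM in cKO libraries and 5199 to 5729 CPM in WT libraries. Of 8 astrocyte genes 3 rose and 1 fell there, with summed levels of 4206 to 4691 CPM in cKO and 4170 to 4367 CPM in WT. Of 8 cerebellar neuron genes 1, Fat2, fell (log2 fold change -0.27, adjusted p = 0.00552 by edgeR), with sums of 7830 to 8585 CPM in cKO and 7747 to 8778 CPM in WT. Of 10 interferon-induced genes, 1, Bst2, rose (log2 fold change 0.63, adjusted p = 0.0342 by edgeR), and the sums were 192.9 to 255.6 CPM in cKO and 201.1 to 228.3 CPM in WT. Of 10 microglial and 8 endothelial genes 0 passed. In striatum 10 of 10 oligodendrocyte genes were below 0 and 4 passed, with sums of 4740 to 5893 CPM in cKO and 7454 to 9147 CPM in WT. Without WT replicate 1, 7 of them passed. With all libraries, no gene of the other marker lists passed in striatum. Gfap was at 298% of WT (log2 fold change 1.58, adjusted p = 0.0593 by edgeR) and Aqp4 at 147%, both without overlap. Slc1a2 and Sox9 of the same astrocyte list lay below WT on average. Astrocyte sums there were 5253 to 5562 CPM in cKO and 4826 to 5854 CPM in WT. Endothelial sums were 168.2 to 194 CPM in cKO and 182.4 to 243.6 CPM in WT. The part of these changes in the subunit values was not tested. The tissue labels held: in WT libraries all 7 striatal projection neuron genes in the files were higher in striatum than in cerebellum, and all 8 cerebellar neuron genes were lower.

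Between the WT tissues 9 of the 34 subunits differed, 1 higher and 8 lower in striatum than in cerebellum, where 64.2% of all genes differed, 31.5% higher and 32.7% lower. Psmd1, the large scaffold of the 19S base, was higher in striatum (log2 fold change 0.22, adjusted p = 0.0123 by edgeR). The lower genes were Psma2, Psma3, Psma7, Psmb10, Psmc3, Psmc5, Psmc6 and Psmd8, with log2 fold changes from -0.51 for Psma7 to -0.31 for Psma3. These sizes include striatal WT replicate 1, where Psma7 was at 55.9% of the other WT striata. Over the 33 subunits other than Psmb5 the median log2 fold change was -0.16 with that library and 0.01 without it. Scaled over all 14 libraries, Psmb5 in WT samples averaged 11.3 ± 3.27 CPM for striatum and 14.5 ± 1.43 CPM for cerebellum (SD, n = 3 and 4), and this difference did not pass (log2 fold change -0.35, adjusted p = 0.111 by edgeR). It passed without striatal WT replicate 3 (-0.56, adjusted p = 0.0161) and in 1 model of all 14 samples (-0.35, adjusted p = 0.0425), and was -0.17 without striatal WT replicate 1 and -0.10 with the length trend removed. Without striatal WT replicate 1, 13 subunits differed, 6 higher and 7 lower. Leaving out a cerebellar WT library gave 4, 5, 3 and 2 subunits for replicates 1, 2, 3 and 4. Tissue cannot be told apart from depth and from the number of samples in this comparison.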

How the data were processed

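RNA was measured in 14 libraries, as described above. The authors deposited 1 file of raw counts per gene symbol for each library. The tools cutadapt 1.13, STAR, HTSeq 0.6.1p1 and DESeq2 and the genome build mm10 are named, without their settings, per the submitters' processing notes. The annotation and strand setting were not given in the sources used here. Sample groups came from the labels.

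From the counts, genes were tested with edgeR 4.0.16 (quasi-likelihood, robust, TMM scaling, filterByExpr with a minimum count of 10) within each tissue, over all 14 libraries for the difference between tissues, and between WT tissues, in R 4.3.3. P-values were adjusted by Benjamini-Hochberg over all genes tested and called under 0.05. Levels are CPM on TMM library sizes within each tissue, and over all 14 libraries where levels are given per kb or compared between tissues. Per-kb values divide by the union of exons in the GENCODE annotation of GRCm38. Single genes were also tested by an exact two-sided permutation of CPM over samples. Alternatives were DESeq2 size factors, no filter on low counts, a filter on mean CPM under 1, and the test of DESeq2 1.42.0. Others were limma-voom with a quality weight for each library (limma 3.58.1), the replicate number as a block, and 1 model of all libraries. The last were removal of each library's trend on exon length, an adjusted p under 0.1, and leaving out each library.

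The subunits, gene lists and tests were chosen with earlier results of these data known. Values in every sample are given for Thap1, Psmb5, subunits that passed by genotype, the catalytic and the immunoproteasome subunits; other subunits by ranges, with the extremes of each role. Psmd13, as the lowest adjusted p among the rest, was singled out after its values were seen. Depth per library is given above and limits genes with few counts such as Psmb9. Of 43 symbols on the pathway lists, some of them older names of the same gene, 39 were in the files; Drd1 of the marker lists was not used here. Sequence and coordinates of promoters came from RefSeq, and those of 6 subunits were not used here.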

Additional observations from a re-analysis of the deposited data

Results flagged for a closer look

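Examined were 72 groups of 4 cerebellar libraries, 1 per genotype for each measure. The measures were the 34 subunits, Thap1 and the relative level of Psmb5 within the 20S set. Of these groups 6 held a library far from the other 3, where chance gives about 1 in 20 for a single group. The groups share the same libraries and are not independent, so the count cannot be weighed against that share. In cKO cerebellum the value standing apart was 92.7 CPM for Psma1, 94.6 CPM for Psmb1, 127 CPM for Psmd3 and 61.4 CPM for Psmd13. In WT cerebellum it was 95.8 CPM for Psmb4 and 83.8 CPM for Psmb6. None of these 6 genes passed the test between genotypes, and Psmb5 had no such library in either genotype.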

How the results depend on the processing

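In cerebellum Psmb5 passed under every alternative run, at -0.80 to -0.77 over the other settings and -0.83 to -0.72 with 1 library left out, where 1 subunit was called throughout (0 higher, 1 lower). At an adjusted p under 0.1, 2 were called, 1 of them higher (Psmd13). In striatum 0 subunits were called under any alternative, and Psmb5 was -0.37 to -0.06 over the other settings and -0.27 to 0.13 with 1 library left out, the sign turning without WT replicate 3. The difference between tissues in Psmb5 was -0.93 to -0.51 with 1 library left out, and 0 to 1 subunits were called (0 higher, 0 to 1 lower). Over the other settings that difference was -0.73 to -0.48, the latter with the length trend removed, and 0 subunits were called. Its adjusted p there ran from 0.0563 by DESeq2 to 0.205 by limma-voom. Between WT tissues 2 to 13 subunits were called with 1 library left out (0 to 6 higher, 2 to 12 lower). With the length trend removed 16 were called (7 higher), and limma-voom called 3 as higher. With the length trend removed Psma6 turned to 0.14 (adjusted p = 0.0456). The cause was not tested. The relative level of Psmb5 within the 20S set changed by -0.88 to -0.77 in cerebellum and by -0.45 to -0.28 in striatum with 1 library left out.

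Same-numbered samples correlated in their deviations by 0.0574 to 0.133 in striatum and 0.0569 to 0.340 in cerebellum, all positive. Differently numbered samples were not compared, so these values cannot decide whether the numbers mark a shared factor. The labels state no pairing, and the main fits did not pair the samples. With the replicate block Psmb5 was -0.78 in cerebellum (adjusted p = 0.000105), -0.06 in striatum and -0.73 for the difference between tissues, and it changed no subunit's call. Over all genes the block gave 441 higher and 805 lower calls in cerebellum, and 6 and 9 in striatum, against 388 and 733, and 9 and 45, without it. No paired analysis was possible between WT tissues because nothing ties the samples of different tissues. In 1 model of all libraries these counts were 72 and 179 in cerebellum and 85 and 291 in striatum, and with DESeq2 they were 24 and 129 in striatum and, for the difference between tissues, 132 and 96 against 37 and 23 by edgeR.

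Over the 8 other settings Thap1 passed in 5 in striatum (-1.56 to -1.36) and in 2 in cerebellum (-0.35 to -0.33). The spread between striatal libraries (biological coefficient of variation 0.135, against 0.0722 in cerebellum) and 3 samples per group limit what could be detected there.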
